A study of Homo sapiens with 12 samples.

Results

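The inhibitor of DNA binding genes ID1, ID2 and ID3 and 6 genes of the bone morphogenetic protein (BMP) pathway, SMAD6, SMAD7, SMAD1, SMAD5, BMPR1A and BMPR2, were followed across 12 libraries of KMS11, a long-established cell line from a human multiple myeloma. They were picked by symbol, 9 of the 29607 genes in the table, because ID1 was among the genes raised most by an STK17B inhibitor. All 9 passed the filter for testing, at least 1 TPM (a transcript level per length, scaled to 1 fixed total in every library) in at least 2 libraries, as did 12731 genes in all, although SMAD6 reached 1 TPM only in overexpression and Vector libraries. The 6 groups hold 2 libraries each. Cells given the STK17B inhibitor carry a wild-type label and, per the series design, a control hairpin. Cells of the sh1 and sh2 groups carry 1 of 2 short hairpin RNAs against STK17B, and shControl cells carry the control hairpin, a wild-type label and no treatment. Overexpression cells carry a vector with the STK17B cDNA, and Vector cells carry the control vector, a wild-type label and no treatment. The name, dose and time of the inhibitor and the promoter that drives the cDNA are not given in the sources used here. The design text names a vehicle, but no group is labelled as one, so the inhibitor was set against shControl, and an effect of the solvent or of other targets of the compound cannot be told apart from one through STK17B. The labels do not say whether the 2 libraries of a group came from separate cultures, so the p-values measure the spread between these libraries, which may be technical.

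BMP ligands bind pairs of type I and type II serine/threonine kinase receptors, among them BMPR1A and BMPR2, which phosphorylate SMAD1 and SMAD5. These enter the nucleus with SMAD4 and switch on target genes, of which ID1, ID2 and ID3 are the classical early ones. SMAD6 and SMAD7, the inhibitory SMADs, are also induced by the pathway and shut it off, SMAD6 mainly for BMP signals and SMAD7 for both BMP and TGF-beta signals. ID proteins have a helix-loop-helix but no DNA-binding region, so they hold E proteins (TCF3, TCF4 and TCF12) away from DNA. In the B cell lineage E proteins drive immunoglobulin genes and differentiation, and in myeloma BMP ligands are known to restrain growth of some cell lines.

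The promoters of the ID genes and of SMAD6 are shown because the 3 ID genes differed by unequal amounts in the same cells and SMAD6 is the feedback gene with a SMAD palindrome in its window. Each line gives 250 bases up to the RefSeq start on GRCh38.p14, 5′ to 3′ on the strand of the gene. ID1 lies at chr20:31605039-31605288 (plus strand), ID2 at chr2:8681806-8682055 (plus strand), ID3 at chr1:23559502-23559751 (minus strand) and SMAD6 at chr15:66701986-66702235 (plus strand). Capitals mark the motifs searched on both strands.
ID1: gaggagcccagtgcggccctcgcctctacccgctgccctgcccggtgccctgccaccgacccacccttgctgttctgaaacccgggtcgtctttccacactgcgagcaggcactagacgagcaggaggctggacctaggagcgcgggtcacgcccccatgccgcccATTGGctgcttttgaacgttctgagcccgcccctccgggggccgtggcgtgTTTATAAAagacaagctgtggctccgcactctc
ID2: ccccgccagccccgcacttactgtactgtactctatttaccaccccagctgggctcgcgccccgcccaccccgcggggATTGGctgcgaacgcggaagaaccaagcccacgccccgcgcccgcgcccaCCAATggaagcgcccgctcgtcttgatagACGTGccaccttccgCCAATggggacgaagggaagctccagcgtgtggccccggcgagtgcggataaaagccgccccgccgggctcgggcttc
ID3: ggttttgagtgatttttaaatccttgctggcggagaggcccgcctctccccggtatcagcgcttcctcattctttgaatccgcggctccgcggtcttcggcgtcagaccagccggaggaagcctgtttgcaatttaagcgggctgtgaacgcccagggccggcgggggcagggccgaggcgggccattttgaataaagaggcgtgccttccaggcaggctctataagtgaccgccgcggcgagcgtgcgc
SMAD6: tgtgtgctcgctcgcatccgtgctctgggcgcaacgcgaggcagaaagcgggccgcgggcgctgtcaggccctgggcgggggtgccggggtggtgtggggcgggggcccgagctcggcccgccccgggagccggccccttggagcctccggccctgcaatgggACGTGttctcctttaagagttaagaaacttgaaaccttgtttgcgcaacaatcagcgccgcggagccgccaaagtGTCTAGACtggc
The motifs were GGCGCC (the GC-rich SMAD element known from BMP-responsive promoters), GTCTAGAC (the SMAD palindrome), TGACGTCA (the cAMP response element), ACGTG (the core of the hypoxia response element), and TATAAA and CCAAT, both added after the sequences had been read. ID1 holds TATAAA on both strands at overlapping places, positions -31 and -33 from the start, and CCAAT on the minus strand. ID2 holds ACGTG, and CCAAT at 3 places, and ID3 holds none of the 6 motifs. SMAD6 holds GTCTAGAC at position -12 and ACGTG. None of the 4 windows holds GGCGCC or TGACGTCA, while among the windows not shown BMPR2 holds GGCGCC at -147 and 2 of the 5 windows of SMAD1 hold it. Of 35116 RefSeq windows of this length, GGCGCC was in 16.4%, GTCTAGAC in 0.182%, TGACGTCA in 1.65%, ACGTG in 18.5%, TATAAA in 10.7% and CCAAT in 32.0%. A match is a description of the letters, not a shown binding site. Only these 250 bases were searched, so a missing motif says nothing of elements farther from the start.

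A library held 16577 to 17354 genes above 0 and 11672 to 12353 with at least 1 TPM. Depth is unknown from TPM. Of 8 plasma cell and myeloma markers 7 were found, and 6 of them averaged at least 1 TPM, with CD38 the exception at 0.13 to 1.47 TPM. Their summed level was 1234 to 1272 TPM with the inhibitor, 1094 to 1115 with sh1, 1304 to 1311 with sh2 and 1632 to 1646 in shControl, and 1393 to 1418 with overexpression against 1713 to 1732 in Vector. It was thus lower in every manipulated group than in its control, and its part in the results on the ID genes was not tested. In bulk RNA, fewer cells that express a gene and less RNA per cell cannot be told apart. Markers of B cells summed to at most 2.24 TPM and those of myeloid cells to at most 1.79 TPM, while the list for T and NK cells was nearly all CD7. It summed to 226 to 241 TPM with the inhibitor, 244 to 259 with sh1, 220 in both sh2 libraries and 143 in both shControl libraries, and to 417 to 450 with overexpression against 222 to 235 in Vector. It was higher in every manipulated group than in its control, and its part in the results was not tested either. STK17B itself had 24.9 and 22.4 TPM with the inhibitor, 12.7 and 10.9 with sh1, 14.7 and 14.5 with sh2 and 27.1 and 27.4 in shControl. Overexpression libraries had 94.1 and 84.5 TPM against 28.2 and 31.5 in Vector, so the hairpin and cDNA libraries matched their labels.

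ID1 had the largest difference of the 9 genes, and it was with the inhibitor. ID1 (chr20:31605283-31606515, plus strand) had 116 and 116 TPM with the inhibitor, 23.2 and 23.3 with sh1, 24.0 and 22.6 with sh2 and 21.6 and 19.9 in shControl. In the other pair of groups it had 27.3 and 35.0 TPM with overexpression and 18.3 and 19.4 in Vector. Both inhibitor libraries lay far above all 10 others, and both overexpression libraries lay above every hairpin and control library. The ratio of mean TPM was 5.59 for the inhibitor over shControl, and the difference on the log2(TPM + 1) scale used for all fits was 2.43 (SE 0.095), which ranked 10 among rises in 12731 genes. This contrast chose the genes, so the value is a description without a test. With overexpression ID1 rose by 0.69 on the log2 scale (SE 0.095, limma, adjusted p = 5.4e-04), a ratio of mean TPM of 1.65. With the hairpins the difference was 0.16 (SE 0.082, 95% interval -0.026 to 0.34, limma, adjusted p = 0.143), although the 4 hairpin libraries lay above both shControl libraries. The hairpin value of ID1 was past the threshold in a fit of only the groups compared (0.16) and with the control columns exchanged (0.29).

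ID2 gave a different order of groups. ID2 (chr2:8678845-8684453, plus strand) had 105 and 94.4 TPM with the inhibitor, 96.4 and 93.2 with sh1, 98.4 and 97.2 with sh2 and 70.3 and 66.7 in shControl. It had 90.6 and 84.1 TPM with overexpression and 69.8 and 69.2 in Vector. The control groups overlapped each other, and every manipulated library lay above them. ID2 rose with the hairpins by 0.49 on the log2 scale (SE 0.047, limma, adjusted p = 3.5e-05, higher in 4 of 4 libraries) and with overexpression by 0.32 (SE 0.054, limma, adjusted p = 0.0015, higher in 2 of 2 libraries). The inhibitor difference, given without a test, was 0.53 (SE 0.054). The hairpin comparison uses the same shControl libraries as the inhibitor comparison, so these values are not independent. The overexpression comparison has its own Vector control. The hairpin effect minus the overexpression effect was 0.16 (limma, adjusted p = 0.118, 95% interval 0.0016 to 0.32), and it was past the threshold with median-of-ratios scaling (0.24) and with quantile normalization (0.20).

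ID3 followed ID1 in direction but not in size. ID3 (chr1:23557918-23559794, minus strand) had 37.0 and 41.1 TPM with the inhibitor, 20.9 and 20.8 with sh1, 21.5 and 22.1 with sh2 and 20.9 and 19.5 in shControl. It had 31.2 and 30.4 TPM with overexpression and 23.6 and 20.5 in Vector. The inhibitor libraries were highest, the overexpression libraries next, and hairpin libraries overlapped shControl. The inhibitor difference was 0.91 on the log2 scale (SE 0.070, no test), and ID3 rose with overexpression by 0.47 (SE 0.070, limma, adjusted p = 8.3e-04). With the hairpins the difference was 0.073 (SE 0.061, 95% interval -0.064 to 0.21, limma, adjusted p = 0.359).

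**Figure D1:**
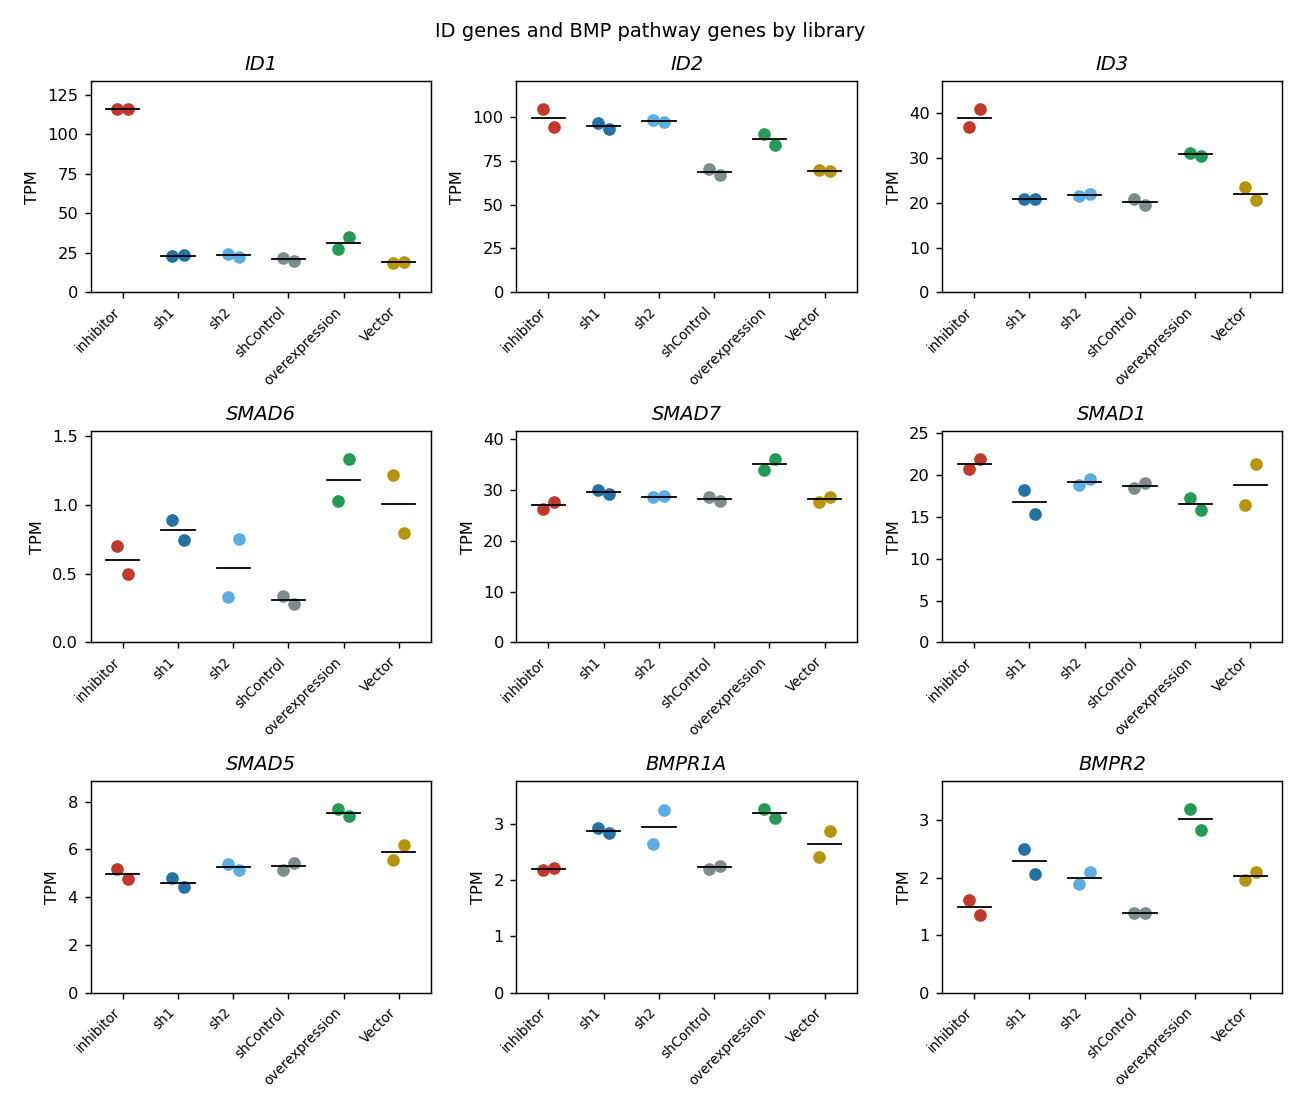
TPM of the 9 genes in each library (points) with the mean of each group (line), on linear axes from 0. ID1 stood at 116 TPM in both inhibitor libraries and at 35.0 TPM or less in the other 10.

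With the inhibitor, ID1 made up a larger share of the ID family. The genes were picked because the inhibitor raised ID1, so its share, the ID sum and the ratio to E proteins follow in part from that choice. Without ID1 the sum was 142 and 136 TPM with the inhibitor and 91.2 and 86.3 in shControl. ID1, ID2 and ID3 together had 255 ± 4.86 TPM with the inhibitor, 139 ± 2.29 with sh1, 143 ± 1.48 with sh2 and 109 ± 4.71 in shControl (mean ± SD, n = 2 each). They had 149 ± 0.30 TPM with overexpression and 110 ± 1.73 in Vector. ID1 was 45.5% of that sum with the inhibitor, 16.7% with sh1 and 16.3% with sh2, against 18.9% in shControl. It was 20.9% ± 3.62 with overexpression (18.3% and 23.4%) against 17.1% in Vector. ID2 was the most abundant of the 3 in every hairpin, overexpression and control library, and ID1 was the most abundant in the inhibitor libraries. The summed E protein genes TCF3, TCF4 and TCF12 had 281 TPM with the inhibitor, 236 with sh1, 240 with sh2 and 248 in shControl, and 225 with overexpression against 229 in Vector. The ratio of ID to E protein transcripts was thus 0.906 with the inhibitor, 0.587 with sh1, 0.595 with sh2 and 0.442 in shControl, and 0.663 with overexpression against 0.482 in Vector. These are ratios of transcript levels and say nothing of protein.

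**Figure D2:**
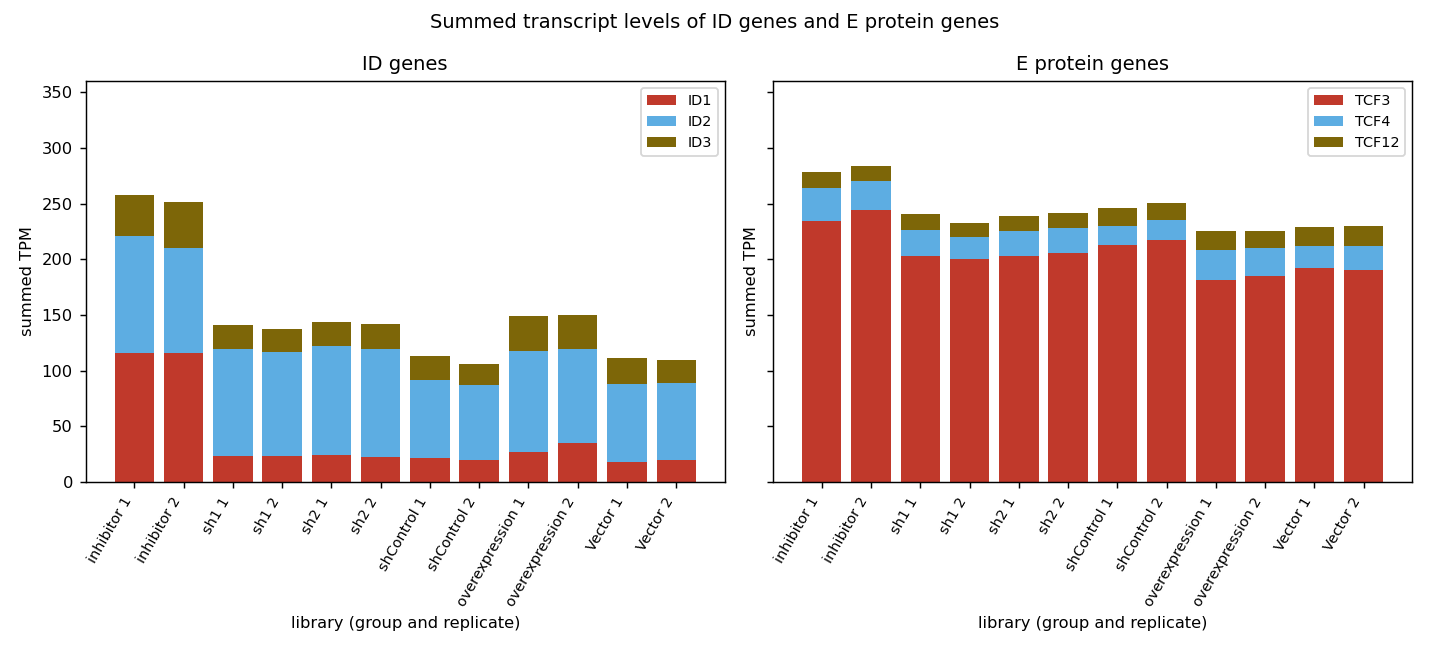
Summed TPM of the ID genes (left) and of the E protein genes (right) in each library, stacked by gene. The ID sum is 258 and 251 TPM in the inhibitor libraries and 150 TPM or less in the other 10.

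SMAD7, a feedback gene, passed the test with overexpression. SMAD7 (chr18:48919853-48952052, minus strand) had 26.3 and 27.6 TPM with the inhibitor, 30.0 and 29.2 with sh1, 28.5 and 28.7 with sh2 and 28.6 and 27.9 in shControl. It had 33.9 and 36.1 TPM with overexpression and 27.7 and 28.5 in Vector. Both inhibitor libraries lay below both shControl libraries, with a log2 difference of -0.067 (SE 0.045), which was -0.13 with median-of-ratios scaling, -0.16 with quantile normalization and -0.031 to -0.10 with 1 library left out. SMAD7 rose with overexpression by 0.31 on the log2 scale (SE 0.045, limma, adjusted p = 7.0e-04, higher in 2 of 2 libraries). With the hairpins the difference was 0.041 (SE 0.039, 95% interval -0.046 to 0.13, limma, adjusted p = 0.425).

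SMAD6 was the lowest of the 9 genes, near the 1 TPM used for the filter. SMAD6 (chr15:66702228-66782848, plus strand) had 0.70 and 0.50 TPM with the inhibitor, 0.89 and 0.74 with sh1, 0.33 and 0.75 with sh2 and 0.34 and 0.28 in shControl. It had 1.02 and 1.33 TPM with overexpression and 1.21 and 0.80 in Vector. Its largest difference was between controls, where Vector stood above shControl by 0.61 on the log2 scale (SE 0.170). That value is given without a test, because SMAD6 entered the tested genes through 1 Vector and both overexpression libraries. The differences were 0.29 (SE 0.170) with the inhibitor, 0.35 (SE 0.147) with the hairpins and 0.12 (SE 0.170) with overexpression. The hairpin value was past the threshold without sh2 replicate 1, at 0.45, and the inhibitor value was 0.77 with a pseudocount of 0.1. With the control columns exchanged the hairpin and inhibitor values were -0.26 and -0.32, so no direction is read for SMAD6.

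Of the receptor-activated SMADs, SMAD5 passed the test with overexpression and SMAD1 passed none. SMAD5 (chr5:136132845-136188747, plus strand) had 5.18 and 4.74 TPM with the inhibitor, 4.80 and 4.41 with sh1, 5.39 and 5.12 with sh2 and 5.13 and 5.44 in shControl. It had 7.69 and 7.39 TPM with overexpression and 5.57 and 6.19 in Vector, where the groups did not overlap. SMAD5 rose with overexpression by 0.31 on the log2 scale (SE 0.076, limma, adjusted p = 0.011), a call lost without overexpression replicate 1 (0.29) and without Vector replicate 1 (0.25). The other differences were -0.078 (SE 0.076) with the inhibitor and -0.086 (SE 0.066) with the hairpins. With the control columns exchanged they were -0.21 and -0.22, and the hairpin value was then past the threshold. SMAD1 (chr4:145481194-145558079, plus strand) had 20.8 and 21.9 TPM with the inhibitor, 18.3 and 15.3 with sh1, 18.8 and 19.5 with sh2 and 18.5 and 19.0 in shControl. It had 17.2 and 15.8 TPM with overexpression and 16.4 and 21.3 in Vector, which overlapped. Its differences were 0.18 (SE 0.113), -0.063 (SE 0.098) and -0.17 (SE 0.113) with the inhibitor, the hairpins and overexpression. The last was past the threshold without Vector replicate 1 (-0.35) and with quantile normalization (-0.30), and was 0.011 without Vector replicate 2.

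The receptors were the lowest of the 9 apart from SMAD6. BMPR2 (chr2:202376936-202567751, plus strand), the type II receptor, had 1.61 and 1.35 TPM with the inhibitor, 2.49 and 2.07 with sh1, 1.88 and 2.11 with sh2 and 1.39 and 1.38 in shControl. It had 3.20 and 2.83 TPM with overexpression and 1.96 and 2.09 in Vector. BMPR2 rose with the hairpins by 0.39 on the log2 scale (SE 0.091, limma, adjusted p = 0.0063, higher in 4 of 4 libraries) and with overexpression by 0.41 (SE 0.105, limma, adjusted p = 0.014), while the inhibitor difference was 0.056 (SE 0.105), -0.019 without inhibitor replicate 1 and -0.29 with the control columns exchanged. The overexpression call was lost without overexpression replicate 1 (0.34), without Vector replicate 1 (0.38) and with quantile normalization (0.24). Vector was also higher than shControl by 0.34 (SE 0.105, limma, adjusted p = 0.037), a call lost when any 1 library of the 4 was left out (0.31 to 0.37), and the hairpin value was 0.050 when the control columns were exchanged.

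BMPR1A (chr10:86756601-86932838, plus strand), a type I receptor, had 2.18 and 2.21 TPM with the inhibitor, 2.93 and 2.84 with sh1, 2.64 and 3.25 with sh2 and 2.21 and 2.26 in shControl. It had 3.27 and 3.11 TPM with overexpression and 2.41 and 2.88 in Vector. BMPR1A rose with the hairpins by 0.27 on the log2 scale (SE 0.086, limma, adjusted p = 0.027, higher in 4 of 4 libraries), a call lost without sh1 replicate 1 (0.27), sh2 replicate 2 (0.22), shControl replicate 1 (0.26) or shControl replicate 2 (0.29). It was also lost with quantile normalization (0.20), in a fit of only the groups compared (0.27) and with the control columns exchanged (0.10). The difference was 0.20 (SE 0.0998) with overexpression and -0.016 (SE 0.0998) with the inhibitor, where it was -0.19 with the control columns exchanged. BMPR1A has the processed pseudogenes BMPR1AP1 and BMPR1AP2, so its reads may have been split and its level is uncertain.

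**Figure D3:**
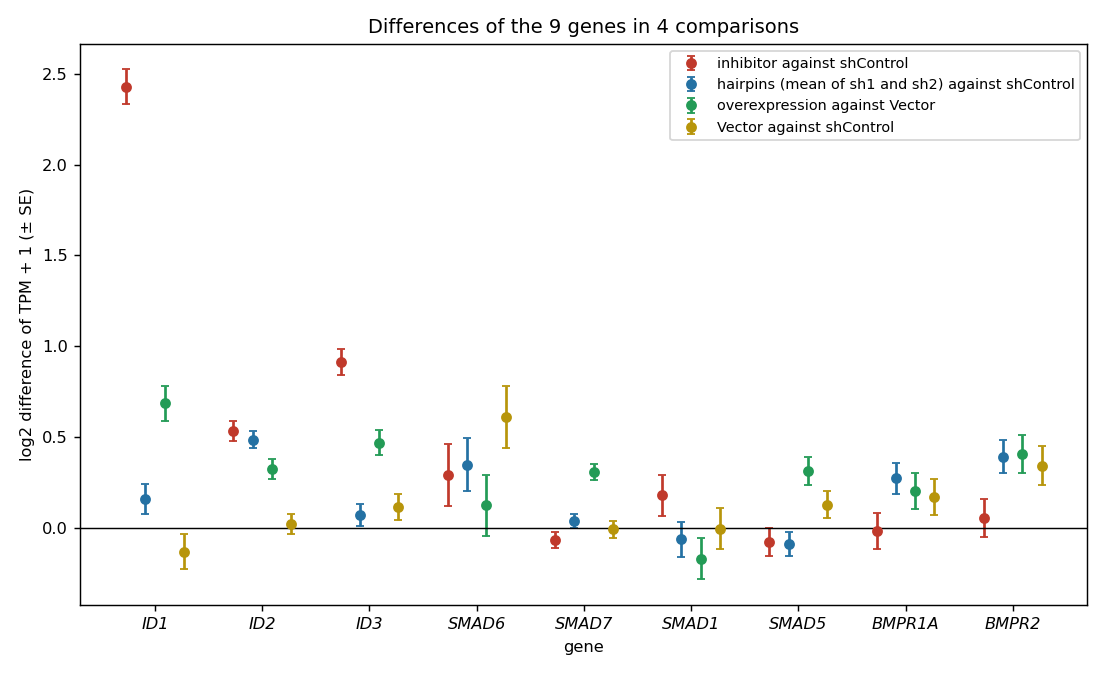
Log2 differences of TPM + 1 (points, ± SE from the fit) of the 9 genes in 4 comparisons. ID1 is at 2.43 with the inhibitor and 0.69 with overexpression, against 0.16 with the hairpins.

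More of the 9 genes passed the test with overexpression than with the hairpins. With overexpression 6 of 9 passed the test, all higher (ID1, ID2, ID3, SMAD7, SMAD5 and BMPR2), against 36.8% of all tested genes called, 26.6% higher and 10.3% lower. With the control columns exchanged 8 of 9 passed, BMPR1A (0.37) and SMAD6 (0.74) in addition. Of all 12731 tested genes 7468 were called there, 5721 of them higher. Nothing is read from SMAD6 in this count, since it passed the filter mainly through the overexpression libraries. The median of the 9 was 0.31, beside 0.081 over all tested genes. With the hairpins 3 of 9 passed, all higher (ID2, BMPR1A and BMPR2), a share close to the 26.2% called higher among all tested genes (20.2% lower, 46.3% in either direction), with a median of 0.16 beside 0.029. Vector against shControl called 2 of 9, both higher, where 29.3% of all tested genes were called (21.4% higher, 7.86% lower). They were BMPR2 and SMAD6, and nothing is read from the count, since SMAD6 passed the filter through libraries where it was high. The comparison of sh2 against sh1 called 0 of 9 (limma; 1.55% of all tested genes), and 0 of 9 were below 0.05 before adjustment. In the inhibitor comparison 5 of 9 genes lay wholly above shControl and 1 wholly below, against 48.3% and 22.8% of all tested genes, of which 39.9% passed the test (28.0% higher, 11.8% lower). The difference of the hairpin and overexpression effects was itself tested, and 4 of 9 were lower in the hairpins (29.9% of all tested genes called, 11.4% higher and 18.5% lower). These were ID1 (-0.53, SE 0.126, limma, adjusted p = 0.012), ID3 (-0.40, SE 0.093, adjusted p = 0.011), SMAD7 (-0.27, SE 0.059, adjusted p = 0.0084) and SMAD5 (-0.40, SE 0.101, adjusted p = 0.016). The call of SMAD5 was lost without shControl replicate 2 (-0.36), overexpression replicate 1 (-0.37) or Vector replicate 1 (-0.33), and that of ID1 with the control columns exchanged (-0.27). With that exchange BMPR2 passed as lower in the hairpins (-0.70), where 7605 of all 12731 tested genes were called, 5763 of them lower. Of all calls with overexpression 72.1% were higher, against 43.2% with median-of-ratios scaling and 46.3% with quantile normalization.

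Of 200 other genes of the pathway in 10 lists, 101 were tested. With the inhibitor 20 were higher and 23 lower, 42.6% beside 39.9% of all tested genes. With the hairpins 24 were higher and 34 lower, 57.4% beside 46.3%, and with overexpression 26 were higher and 15 lower, 40.6% beside 36.8%. The counts per list below stand beside the shares of all tested genes. These were 28.0% higher and 11.8% lower with the inhibitor, 26.2% and 20.2% with the hairpins, and 26.6% and 10.3% with overexpression. The counts per list are small: with 1 library left out, 33 of the 60 counts given for these lists moved by more than 1.5 times, for each of the 12 libraries in at least 3 counts, most often shControl replicate 2 (13 counts) and shControl replicate 1 (12 counts). Some of the best known targets were hardly present: ID4 reached at most 0.335 TPM, SMAD9 0.487, ATOH8 0.175, HAMP 0.422 and EGR1, an inducer of ID1, 0.150. The receptor BMPR1B reached at most 0.056 TPM.

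Among ligands, 8 of 31 were tested. With the inhibitor 1 was higher and 4 were lower, with the hairpins 1 and 4, and with overexpression 1 and 3. BMP6, a BMP ligand known from iron regulation in liver, had 26.3 and 28.7 TPM with the inhibitor, 19.4 and 18.8 with sh1, 21.8 and 22.7 with sh2 and 33.2 and 32.1 in shControl. It fell by 0.64 on the log2 scale with the hairpins (limma, adjusted p = 5.8e-06) and by 0.24 with the inhibitor (adjusted p = 0.0055). GDF11, a ligand of the activin branch, fell by 0.62 with the hairpins (limma, adjusted p = 3.3e-05) and by 0.49 with the inhibitor (adjusted p = 5.2e-04). GDF11 also fell with overexpression, by 0.37 (limma, adjusted p = 0.0025), and sh2 stood above sh1 by 0.34 (adjusted p = 0.046). AMH, which signals through SMAD1 and SMAD5, rose by 0.67 with the inhibitor (limma, adjusted p = 2.9e-05) and 0.91 with overexpression (adjusted p = 5.1e-06). With the hairpins AMH was called higher by 0.18 (limma, adjusted p = 0.013) although its libraries overlapped those of shControl, and 0 to 2 ligands were called higher there with 1 library left out.

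Of 16 receptors 7 were tested, with 0 higher and 1 lower under the inhibitor, 2 and 1 with the hairpins and 3 and 0 with overexpression. TGFBR1, the TGF-beta type I receptor, rose by 0.39 with the hairpins (limma, adjusted p = 0.0038), and ACVR1B, an activin receptor, rose by 0.48 with overexpression (limma, adjusted p = 2.7e-04). ACVR1B was also called with the hairpins (0.15, limma, adjusted p = 0.033) and the inhibitor (-0.22, adjusted p = 0.015), calls lost under some alternatives. For Vector against shControl ACVR1B was at -0.19 (limma, adjusted p = 0.041). Of 11 SMADs and nuclear partners 9 were tested, with 6 higher and 0 lower under the inhibitor, 3 and 2 with the hairpins, and 3 and 3 with overexpression. SMAD4, the shared partner of all receptor-activated SMADs, rose by 0.37 with the hairpins (limma, adjusted p = 3.0e-04).

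Of 19 secreted antagonists 6 were tested, with 0 higher and 2 lower with the inhibitor (limma), 2 and 3 with the hairpins and 2 and 0 with overexpression. NOG, the secreted antagonist noggin, had 1.69 and 1.37 TPM with the inhibitor, 1.67 and 1.49 with sh1, 1.58 and 1.90 with sh2 and 3.05 and 3.72 in shControl. NOG fell by 0.79 on the log2 scale with the inhibitor and 0.72 with the hairpins (limma, adjusted p = 7.0e-04 and 3.5e-04), and Vector was higher than shControl by 0.65 (adjusted p = 0.0032), so that the inhibitor value was -1.44 with the control columns exchanged. BAMBI, a receptor decoy without a kinase and itself a BMP target, had 11.6 and 12.8 TPM with the inhibitor, 6.76 and 7.71 with sh1, 9.56 and 8.89 with sh2 and 13.9 and 14.8 in shControl. BAMBI fell by 0.74 with the hairpins (limma, adjusted p = 1.6e-05). Of 25 tested intracellular inhibitors 7 were higher and 3 lower with the inhibitor, 8 and 5 with the hairpins and 7 and 1 with overexpression, where TGIF1, a SMAD corepressor, rose by 0.56 (limma, adjusted p = 1.4e-04). With 1 library left out those with overexpression called higher were 3 to 5 (fewest without Vector replicate 2) and those with the hairpins 5 to 8.

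Target genes passed the test in both directions. Of 25 BMP-SMAD targets 8 were tested, and NOG and BAMBI are counted here too. Called were 2 higher and 3 lower with the inhibitor, 1 and 4 with the hairpins and 2 and 1 with overexpression. The higher ones were HEY2 (0.56) and MSX1 (0.43) with the inhibitor, HEY1 (0.30) with the hairpins, and KLF10 (0.40) and JUNB (0.20) with overexpression. All of these calls except that of KLF10 were lost under some alternatives. Of 21 TGF-beta targets 11 were tested, with 1 higher and 4 lower with the inhibitor, 3 and 4 with the hairpins, and 2 and 2 with overexpression. FN1, which encodes fibronectin, had 3.04 and 2.93 TPM with the inhibitor, 5.55 and 4.60 with sh1, 5.44 and 5.60 with sh2 and 7.53 and 7.64 in shControl. FN1 fell by 1.11 with the inhibitor (limma, adjusted p = 1.6e-05), by 0.45 with the hairpins and by 0.46 with overexpression. PMEPA1, a negative regulator of TGF-beta signalling, fell by 0.46 with the inhibitor and by 0.43 with the hairpins (limma, adjusted p = 2.3e-04 and 8.8e-05).

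Of the 19 genes in the list labelled other inducers of ID1 transcription, 14 were tested. With the inhibitor 1 was higher and 5 were lower, with the hairpins 3 and 7, and with overexpression 3 and 1. The label is loose, since not every listed gene is a known inducer, and the action of these genes on ID1 was not tested. KLF2, a factor of quiescence and blood flow response, had 2.04 and 1.35 TPM with the inhibitor, 2.11 and 2.74 with sh1, 3.02 and 1.87 with sh2 and 6.17 and 6.27 in shControl. KLF2 fell by 1.44 with the inhibitor and by 1.09 with the hairpins (limma, adjusted p = 3.4e-04 and 4.8e-04). With 1 library left out, KLF2 was at -1.62 to -1.25 with the inhibitor and at -1.21 to -0.96 with the hairpins. JUN, an AP-1 factor, fell by 0.85 with the inhibitor (limma, adjusted p = 7.4e-06), with 4.55 and 4.87 TPM there and 9.29 and 9.29 in shControl. Vector had 20.8 and 20.3 TPM of JUN, and the inhibitor difference was -1.92 with the control columns exchanged.

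Of 23 E proteins and bHLH partners 9 were tested, with 2 higher and 2 lower with the inhibitor, 1 and 4 with the hairpins and 3 and 3 with overexpression. TCF4 rose by 0.61 with the inhibitor and by 0.32 with the hairpins (limma, adjusted p = 5.7e-04 and 0.0071). With the control columns exchanged its hairpin value was 0.066. BHLHE40, a hypoxia-responsive repressor, had 11.5 and 10.7 TPM with the inhibitor against 35.0 and 36.4 in shControl. BHLHE40 fell by 1.60 with the inhibitor and by 0.28 with the hairpins (limma, adjusted p = 2.5e-08 and 3.5e-04). Of 16 targets of E proteins and Ets partners 10 were tested, with 1 higher and 1 lower with the inhibitor, 1 and 2 with the hairpins and 2 and 1 with overexpression. CDKN1C, the cell cycle inhibitor p57, had 2.33 and 2.26 TPM with the inhibitor against 5.62 and 6.78 in shControl, and 17.5 and 17.4 TPM with overexpression against 5.71 and 5.77 in Vector. CDKN1C fell by 1.12 with the inhibitor (limma, adjusted p = 2.6e-05) and rose by 1.45 with overexpression (adjusted p = 6.3e-06). With the hairpins CDKN1C was not called, although the hairpin libraries lay below both shControl libraries.

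**Figure D4:**
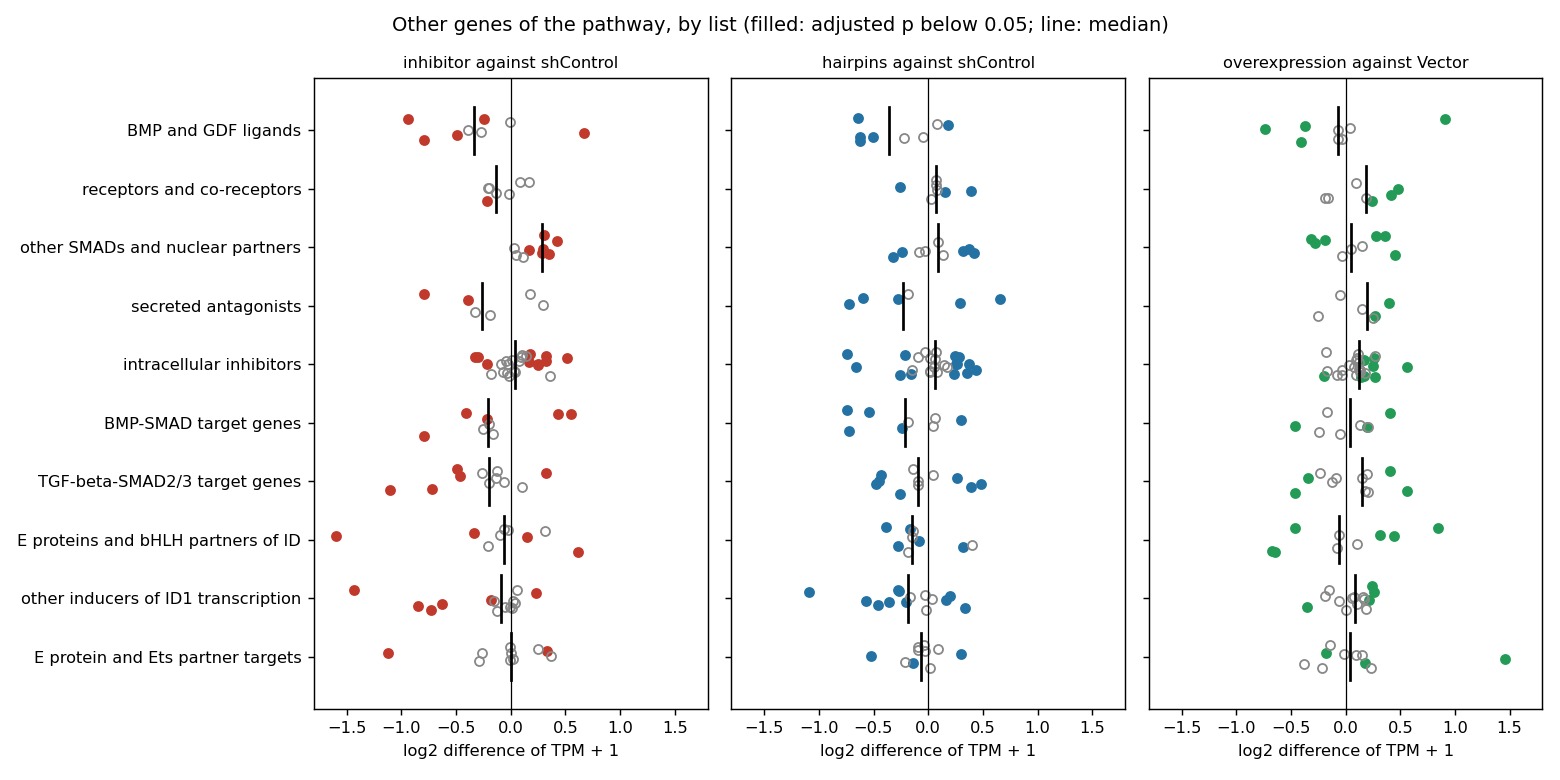
Log2 differences of TPM + 1 for the tested genes of the 10 lists in 3 comparisons (filled points, adjusted p below 0.05; lines, list medians). With the inhibitor the ligand list has 1 filled point above 0 and 4 below.

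Likeness to ID1 and ID3 was measured as the root mean square difference of profiles over the 12 libraries, each centred on its own mean on the log2 scale, among 9699 genes that averaged at least 5 TPM in a group. Nearest to ID1 were CYP26A1 (0.494), HMOX1 (0.495), MYADML2 (0.530), BZRAP1 (0.546) and GALM (0.548). None was close: CYP26A1, which breaks down retinoic acid, had 21.1 and 21.7 TPM with the inhibitor against 9.04 and 8.71 in shControl, but 4.43 to 5.33 TPM in the hairpin libraries. HMOX1, the haem oxygenase induced by oxidative stress, had 91.0 and 93.5 TPM with the inhibitor and 40.9 to 51.7 in the hairpin libraries against 22.2 and 23.6 in shControl. Nearest to ID3 were GLB1L2 (0.099), UBXN11 (0.155), TRIM41 (0.158), SPATA33 (0.160) and B3GNTL1 (0.169). GLB1L2, a beta-galactosidase-like gene, had 54.9 and 56.8 TPM with the inhibitor against 35.0 and 35.7 in shControl, and 47.1 and 49.7 with overexpression against 35.2 and 35.4 in Vector.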

How the data were processed

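Poly(A)-selected, stranded RNA-seq libraries of KMS11 cells gave the TPM values that the authors deposited, with 1 row per gene. The submitters' processing notes list the tools RSEM 1.3.1, HISAT, DESeq2 1.4.5 and Bowtie2 2.3.4.3 and the build GRCh38.p13, without their roles. Read counts were not used here, so depth is unknown and no count model was fitted. The 2 groups of control columns carry no group name and were matched to shControl and Vector by their library numbers, which is an inference, and an exchange of both was run as an alternative. Values were log2(TPM + 1), which understates changes of low genes. Limma 3.58.1 (R 4.3.3) fitted 1 mean for each of 6 groups to the 12731 genes that reached 1 TPM in 2 or more libraries, with eBayes and a mean-variance trend. The p-values were adjusted by Benjamini-Hochberg within each of 6 comparisons, and genes below 0.05 after adjustment are called. The members and the 10 lists were chosen with earlier results of these data known. Named were the 9 members, STK17B, up to 4 called genes of each list and comparison with the largest difference, and the 5 genes most like ID1 and ID3. Genes near 0 and CD38 were named after their values were seen. Gene spans come from GENCODE v29 on GRCh38 and promoters from RefSeq on GRCh38.p14, where all 9 genes matched. SMAD1, SMAD5 and ID2 overlap antisense genes; whether the counting used strand is not given in the sources used here. No pair of libraries held identical values. The fit was tested on simulated data with independent noise. Far fewer genes changed there than were called with the hairpins, overexpression or the inhibitor, so that test says nothing about those counts. Alternatives were a pseudocount of 0.1, no filter, a filter of 5 TPM, scaling by median of ratios, quantile normalization, a fit of only the groups compared, the omission of each library, and a replicate block.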

Additional observations from a re-analysis of the deposited data

How the results depend on the processing

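Under 9 kinds of alternative the 54 values of the 9 genes were refitted 684 times. Direction and side of the threshold (for inhibitor values, size within the spread) were kept 597 times, 29 calls were lost, 11 were gained, 32 tested values turned sign and 15 inhibitor values moved. ID2 with the hairpins and ID1, ID2, ID3 and SMAD7 with overexpression passed the test under every alternative run. So did ID3 and SMAD7 in hairpin minus overexpression.

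With the control columns exchanged, hairpin values turned to -0.043 for ID3, -0.26 for SMAD6, -0.054 for SMAD3, 0.16 for BGLAP and -0.039 for HEY1. Overexpression values turned to 0.060 for INHBE, 0.032 for CDKN2B and 0.16 for TAL2, and the hairpin minus overexpression values to -0.999 for SMAD6 and -0.27 for BMPR1A. Inhibitor values turned to -0.32 for SMAD6 and -0.29 for BMPR2, and to 0.0013 for BMPR1A with quantile normalization. That exchange called 7468 genes with overexpression and 7605 for hairpin minus overexpression. It has no part in sh2 against sh1, and for Vector against shControl it only turns the sign. After quantile normalization the values turned to -0.024 for SMAD6 with overexpression, to -0.013, -0.043 and -0.016 for ID2, SMAD5 and BMPR1A in Vector against shControl, to -0.022 and -0.037 for ID1 and BMPR1A in sh2 against sh1, and to 0.089 for BMPR2 in hairpin minus overexpression. After the median of ratios they were -0.081 for ID2 in Vector against shControl, -0.034 and -0.011 for ID1 and BMPR1A in sh2 against sh1, and 0.053 for BMPR2 in hairpin minus overexpression, which was 0.037 with a pseudocount of 0.1. The cause was not tested.

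The hairpins called 1 member under the filter of 5 TPM, where SMAD6, BMPR1A and BMPR2 were not tested. Vector against shControl called 1 member with no filter, 0 at 5 TPM, 1 after the median of ratios, 0 after quantile normalization and 1 with only the groups compared. Genes called for sh2 against sh1 were 197, against 114 with no filter, 331 at 5 TPM, 97 after the median of ratios and 5 with only the groups compared. Calls in the higher direction were 70.3% of all calls with the inhibitor (55.9% after the median of ratios, 51.9% after quantile normalization), 73.1% in Vector against shControl (43.0% and 48.4%), 75.1% in sh2 against sh1 (52.6% and 54.1%) and 38.0% in hairpin minus overexpression (55.6% and 52.0%). Quantile normalization put the median of all genes at -0.022 with overexpression, against 0.081 before, and at -0.020 in Vector against shControl, against 0.085 before.

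With 1 library left out, genes called ranged from 4120 to 5637 for the hairpins, 3255 to 3646 for overexpression, 3590 to 4070 for the inhibitor, 2095 to 2832 for Vector against shControl, 17 to 82 for sh2 against sh1 and 2797 to 3816 for hairpin minus overexpression. Members called ranged from 2 to 4 for the hairpins, 4 to 6 for overexpression, 0 to 1 for Vector against shControl, 0 to 0 for sh2 against sh1 and 3 to 4 for hairpin minus overexpression. Values that turned sign ranged from -0.027 to 0.27 for SMAD6 and -0.35 to 0.011 for SMAD1 with overexpression, from -0.019 to 0.13 for BMPR2 with the inhibitor (no test), from -0.029 to 0.012 for SMAD7, -0.015 to 0.058 for ID2 and -0.18 to 0.18 for SMAD1 in Vector against shControl, from -0.039 to 0.043 for ID1 and -0.095 to 0.13 for BMPR1A in sh2 against sh1, and from -0.080 to 0.052 for BMPR2, -0.074 to 0.29 for SMAD1 and -0.022 to 0.16 for BMPR1A in hairpin minus overexpression. A lone library left in a group is assumed to vary like the other groups.

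Same-numbered libraries deviated together in 1 of 15 pairs of groups by a correlation over 0.1 (-0.10 to 0.14). No strong shift shared by number was seen. This cannot show whether same-numbered libraries were prepared together. With the replicate block, genes called were 5772 for the hairpins, 4565 for overexpression, 4932 for the inhibitor, 3531 for Vector against shControl, 114 for sh2 against sh1 and 3679 for hairpin minus overexpression, and none of the 54 member values changed its call.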
